A study of Mus musculus with 8 samples.

Results

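The amino acid and peptide transporters are the carriers of the solute carrier (SLC) families Slc1a, Slc3a, Slc7a, Slc15a, Slc36a, Slc38a, and Slc43a. All genes of these 7 families that have a probe set with that gene symbol alone were taken, which gave 45 of the 18193 genes on the arrays, with 94 of the 45037 probe sets. The families hold 7 genes of Slc1a, 2 of Slc3a, 15 of Slc7a, 5 of Slc15a, 4 of Slc36a, 9 of Slc38a, and 3 of Slc43a. Slc38a8 and Slc38a11 were not analysed here. For the 23 genes with several probe sets, the one that varied most over all 8 arrays, by its standard deviation (SD), was used.

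The arrays compared colonic epithelial cells of 4 mice colonized with wild-type Bacteroides thetaiotaomicron (BTWT) and 4 mice colonized with BTΔMAFF, a mutant that lacks the MAFF (Mucus-Associated Functional Factor) genes. All 8 were male C57BL/6 mice raised under specific pathogen-free conditions, treated with metronidazole and ciprofloxacin, then colonized, and sampled 4 wk later. Both groups thus carry antibiotic treatment and a bacterium. The methods give an age of 8 wk for mice used in experiments. That was taken here as the age at colonization, which puts sampling at 12 wk. Living EpCAM+ CD45- cells were sorted after release from the colon with EDTA, and their RNA was amplified before hybridization, 1 array per mouse. The deposited values are log2 values set to a median of 0 over the 8 mice for each probe set, so they show differences between mice, and no gene's level can be set against another's. The comparison asks whether transporter mRNA in the epithelium differs with the MAFF genes of the colonizing strain.

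Amino acids cross the plasma membrane of epithelial cells through carriers that differ in driving force and place. Sodium- or proton-coupled carriers concentrate amino acids and small peptides in the cell, exchangers trade one amino acid for another, and uniporters let them leave down their gradient. The exchangers of the Slc7a light chains work as pairs in which a heavy chain, encoded by Slc3a1 or Slc3a2, carries the light chain to the membrane, and these pairs are best known from absorption in the small intestine and kidney and from nutrient supply to dividing cells.

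In BTWT relative to BTΔMAFF, 4 transporters were lower and 2 were higher at an unadjusted limma p below 0.05, called the nominal threshold here. Both chains of the cystine and dibasic amino acid exchanger, Slc7a9 and Slc3a1, were lower, as were the proton-coupled carrier Slc36a1 and the neutral amino acid uniporter Slc43a2. Slc38a2, a sodium-coupled importer of neutral amino acids, and Slc3a2, the other heavy chain, were higher. The 4 lower genes are 8.89% of the transporters, against a background of 3.37% of all genes on the arrays, and the 2 higher genes are 4.44%, against a background of 2.35%. Slc7a9 was the only transporter past that threshold with a fold change over 2, 2.22% of the 45 against a background of 0.473%. All BTWT mice were below all BTΔMAFF mice for 2 transporters, Slc7a9 and Slc36a1, or 4.44% against a background of 1.84%, and all were above for 1, Slc38a2, or 2.22% against a background of 1.3%. After Benjamini-Hochberg adjustment over all probe sets, limma called 0 of the 45 transporters and 0 of the 45037 probe sets, so each difference below stands on its unadjusted p only. The median log2 difference was 0.02 over the 45 transporters and 0.02 over all genes. In bulk RNA of sorted cells, fewer cells of a type and less RNA per cell cannot be told apart.

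The promoters of 3 of the lower genes are shown, because these are the lower genes of apical uptake. Each is the RefSeq sequence of GRCm38.p6 from 250 bases before to 50 bases after the annotated start, 5′ to 3′ on the + strand, at chr7:35448842-35449141 for Slc7a9, chr17:85028097-85028396 for Slc3a1, and chr11:55204090-55204389 for Slc36a1. Slc7a9 has another annotated start, at which the window is chr7:35448929-35449228. Capitals mark matches on either strand to GTTAAT (part of the site of the intestinal factor HNF1), CAAAGTC (a core of HNF4 sites), CACGTG (the E-box bound by clock and TFE factors), and TGATGNAA (the C/EBP-ATF response element of amino acid shortage).
Slc7a9: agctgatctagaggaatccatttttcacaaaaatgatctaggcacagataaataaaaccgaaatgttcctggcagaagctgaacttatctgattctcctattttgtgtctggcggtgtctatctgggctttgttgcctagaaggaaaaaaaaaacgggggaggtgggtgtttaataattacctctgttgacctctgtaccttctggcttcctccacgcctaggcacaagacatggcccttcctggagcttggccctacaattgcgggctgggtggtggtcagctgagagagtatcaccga
Slc3a1: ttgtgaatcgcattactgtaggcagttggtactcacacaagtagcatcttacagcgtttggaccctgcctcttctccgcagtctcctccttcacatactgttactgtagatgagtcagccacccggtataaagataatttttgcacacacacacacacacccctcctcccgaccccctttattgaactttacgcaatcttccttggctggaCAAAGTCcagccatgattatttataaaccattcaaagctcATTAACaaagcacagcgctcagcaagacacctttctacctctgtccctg
Slc36a1: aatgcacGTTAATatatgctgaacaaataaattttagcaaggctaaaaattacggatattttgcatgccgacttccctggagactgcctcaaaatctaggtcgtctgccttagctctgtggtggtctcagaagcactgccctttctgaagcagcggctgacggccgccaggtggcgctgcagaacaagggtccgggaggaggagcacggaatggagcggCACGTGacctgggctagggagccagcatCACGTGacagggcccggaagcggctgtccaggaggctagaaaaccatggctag

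The Slc3a1 window held 1 CAAAGTC and 1 GTTAAT, the latter read on the opposite strand, and the Slc36a1 window held 1 GTTAAT and 2 CACGTG. The Slc7a9 windows and the windows of Slc43a2, Slc38a2, and Slc3a2 held none of these 4 motifs, which says only that the letters are not in these windows. RefSeq windows were given for 33 of the 45 genes, 44 windows in all. GTTAAT was in 4 of the 44 and in 7.10% of all 32851 windows, CAAAGTC in 2 and in 4.44%, TGATGNAA in 5 and in 3.97%, and CACGTG in 7 and in 7.15%. The motifs do not overlap one another in the printed windows, and a match is a description of the sequence, not a binding site.

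**Figure D1:**
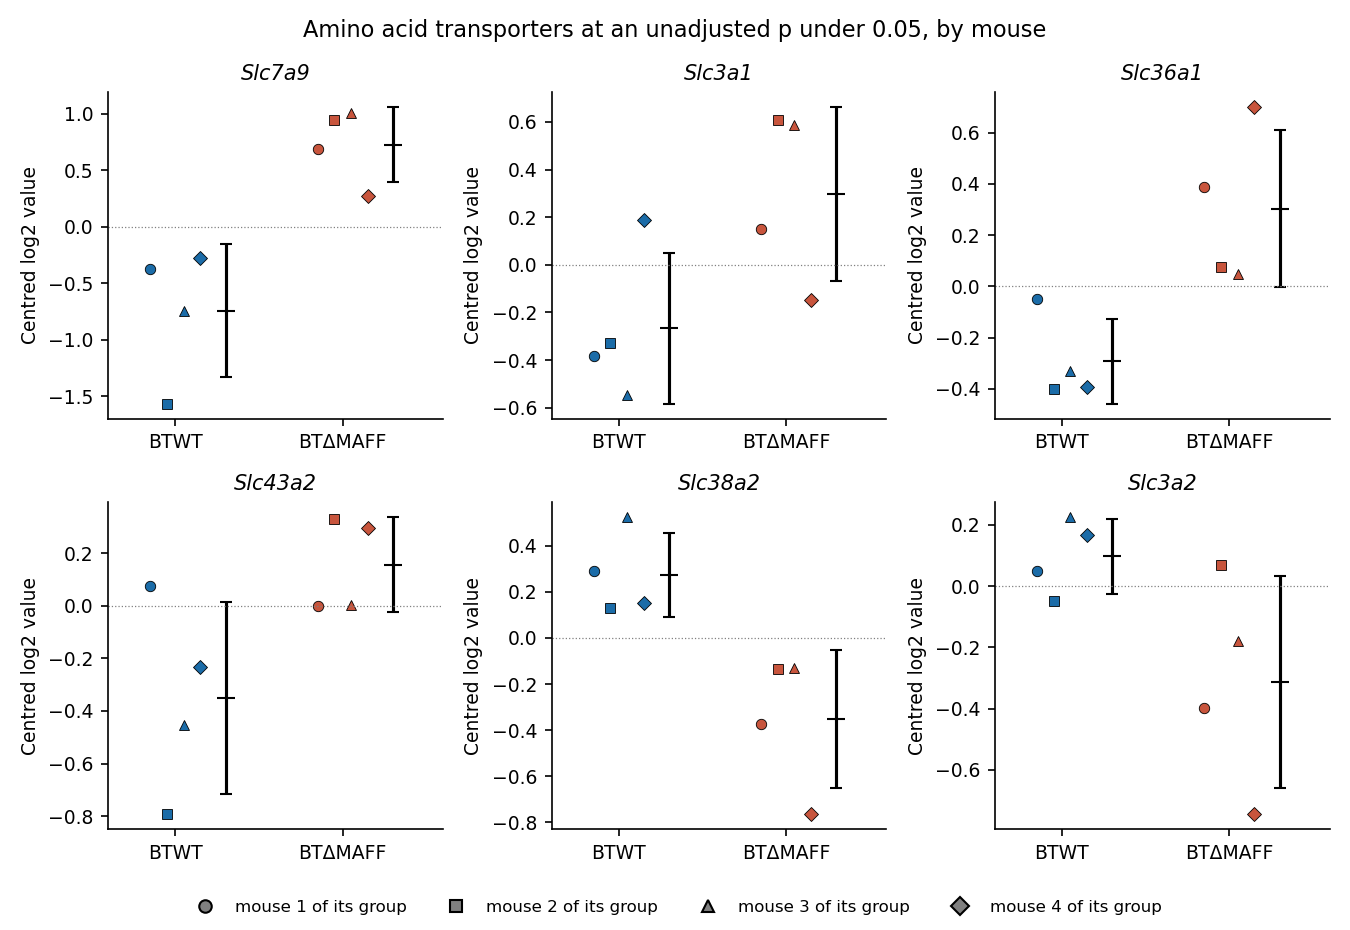
Centred log2 value (y axis) of the 6 transporters with an unadjusted p under 0.05 in each of 4 BTWT and 4 BTΔMAFF mice, with a marker shape for the replicate number and bars for mean ± SD. The groups do not overlap for Slc7a9, Slc36a1, and Slc38a2, and they overlap for Slc3a1, Slc43a2, and Slc3a2.

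Slc7a9 encodes b0,+AT, the light chain that exchanges cystine and dibasic amino acids at the apical membrane, and its loss causes cystinuria. Its centred log2 values were -0.38, -1.57, -0.75, and -0.27 in BTWT replicates 1 to 4 and 0.69, 0.95, 1.01, and 0.27 in BTΔMAFF replicates 1 to 4. Every BTWT mouse was below every BTΔMAFF mouse, with BTWT replicate 2 far the lowest and BTΔMAFF replicate 4 the lowest of its group. BTWT mice averaged -0.74 ± 0.59 (SD, n = 4) and BTΔMAFF mice 0.73 ± 0.33 (SD, n = 4), a difference of -1.47 with a standard error of 0.31 and a 95% confidence interval from -2.21 to -0.73. That is a 2.77-fold lower level in BTWT, with an unadjusted p of 0.0022 and an adjusted p of 0.414 from limma. It was the largest difference among the 6 genes, it had the smallest p of the 45, and it kept an unadjusted p under 0.05 when any 1 array was left out, with differences from -1.63 to -1.20. With limma array weights, which count arrays with large residuals for less, Slc7a9 had a difference of -1.54 and an adjusted p of 0.0198, when 1.29% of all genes passed the adjusted threshold.

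Slc3a1 encodes rBAT, the heavy chain that pairs with b0,+AT. Its values were -0.38, -0.33, -0.55, and 0.19 in BTWT replicates 1 to 4 and 0.15, 0.61, 0.59, and -0.15 in BTΔMAFF replicates 1 to 4. BTWT replicates 1 to 3 were the 3 lowest mice and BTΔMAFF replicates 2 and 3 the highest, but replicate 4 of each group lay on the other group's side, so the groups overlapped. The mean difference was -0.57 with a standard error of 0.22 and a 95% confidence interval from -1.10 to -0.04, which is 1.48-fold lower in BTWT, with an unadjusted p of 0.0397 from limma. The unadjusted p from limma stayed under 0.05 only without BTWT replicate 4 (difference -0.72, unadjusted p = 0.0126) or without BTΔMAFF replicate 4 (-0.71, unadjusted p = 0.0146), and it was between 0.0521 and 0.0990 without each of the other arrays. With array weights the difference was -0.91.

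**Figure D2:**
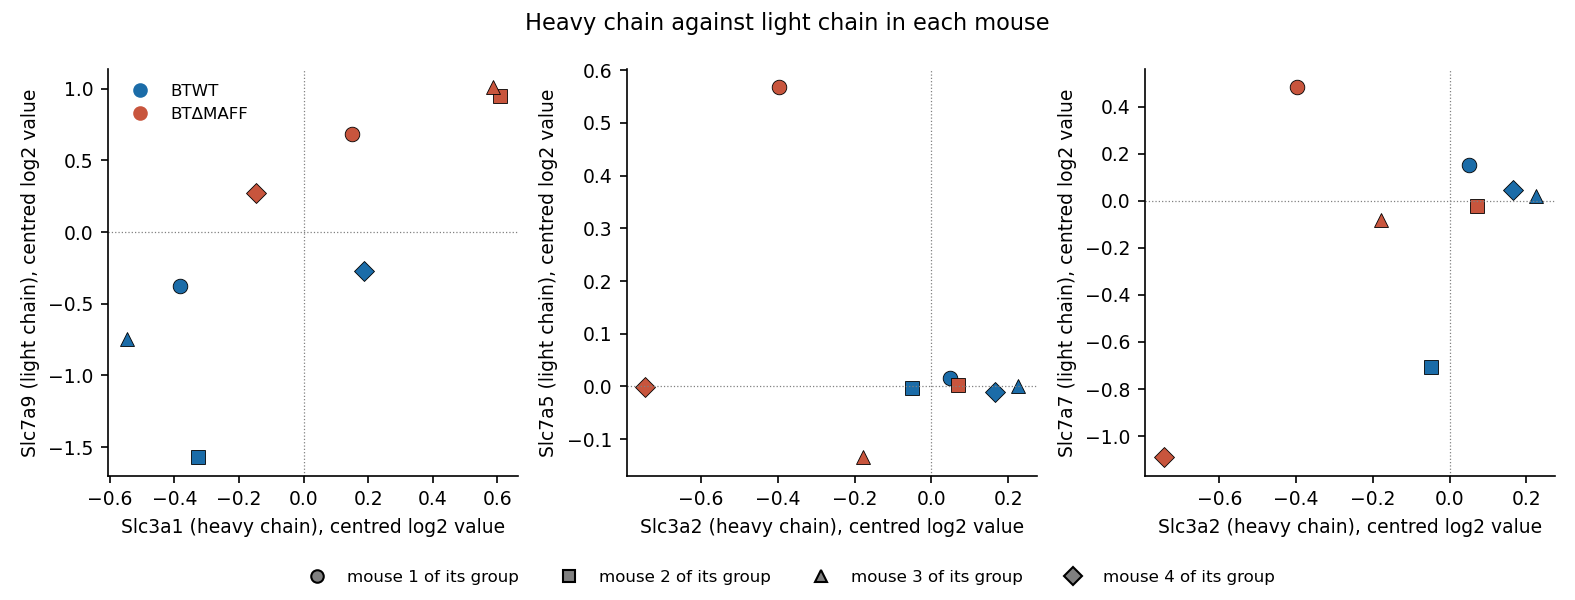
Centred log2 values of a light chain (y axis) against its heavy chain (x axis) in each mouse, for Slc7a9 with Slc3a1, Slc7a5 with Slc3a2, and Slc7a7 with Slc3a2. In the left panel the BTWT mice lie at or below -0.27 and the BTΔMAFF mice at or above 0.27 for Slc7a9, and in the middle panel 1 BTΔMAFF mouse stands at 0.57 for Slc7a5.

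The plot of light chains against heavy chains shows the pair mouse by mouse. BTΔMAFF replicates 2 and 3 were the highest of the 8 mice for both Slc3a1 and Slc7a9. BTWT replicate 3 was the lowest for Slc3a1, whereas BTWT replicate 2 was the lowest for Slc7a9.

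Slc3a2 encodes the heavy chain of CD98, the partner of the light chains that exchange large neutral amino acids, cationic amino acids, and cystine. Its values were 0.05, -0.05, 0.23, and 0.17 in BTWT replicates 1 to 4 and -0.40, 0.07, -0.18, and -0.74 in BTΔMAFF replicates 1 to 4. The groups overlapped, since BTΔMAFF replicate 2 was above 2 of the BTWT mice. The difference was 0.41 with a standard error of 0.17, 1.33-fold higher in BTWT, with an unadjusted p of 0.0469 from limma. It kept an unadjusted p under 0.05 from limma only without BTΔMAFF replicate 2 (0.54, unadjusted p = 0.0093), and without each of the other 7 arrays the p was between 0.0530 and 0.105. The difference was 0.27 without BTΔMAFF replicate 4 and 0.24 with array weights (unadjusted p = 0.0822 from limma).

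None of the 6 light chains that pair with CD98 passed the nominal threshold. Slc7a5 (LAT1, an exchanger of large neutral amino acids) had a difference of -0.11 with a 95% confidence interval from -0.45 to 0.24, and 7 of its 8 values lay between -0.13 and 0.02. The exception was BTΔMAFF replicate 1 at 0.57, and without that array the difference was 0.04. Slc7a6 (y+LAT2) at -0.05 likewise had its highest value, 0.29, in BTΔMAFF replicate 1, and was at 0.03 without it. Slc7a7 (y+LAT1, which releases cationic amino acids across the basolateral membrane) had a difference of 0.06 with an interval from -0.78 to 0.90. Its lowest values were -0.71 in BTWT replicate 2 and -1.09 in BTΔMAFF replicate 4, the arrays that stand apart overall. Slc7a8 (LAT2) had a difference of 0.08 (0.0200 without BTWT replicate 1), Slc7a10 (Asc-1) one of 0.01, and Slc7a11 (xCT, the cystine and glutamate exchanger) one of 0.04, and for the last of these all 8 values lay between -0.08 and 0.13. These intervals span 0 and do not show that the levels were equal.

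Slc38a2 encodes SNAT2, which brings glutamine, alanine, and other small neutral amino acids into the cell with sodium and is known to be induced when amino acids are short. Its values were 0.29, 0.13, 0.53, and 0.15 in BTWT replicates 1 to 4 and -0.37, -0.14, -0.13, and -0.77 in BTΔMAFF replicates 1 to 4. Every BTWT mouse was above every BTΔMAFF mouse, with BTWT replicate 3 the highest and BTΔMAFF replicate 4 the lowest. BTWT mice averaged 0.27 ± 0.18 (SD, n = 4) and BTΔMAFF mice -0.35 ± 0.30 (SD, n = 4), a difference of 0.62 with a standard error of 0.16 and a 95% confidence interval from 0.24 to 1.01. This is 1.54-fold higher in BTWT, with an unadjusted p of 0.0064 and an adjusted p of 0.570 from limma. The difference was between 0.49 and 0.70 when any 1 array was left out, with an unadjusted p of at most 0.0174 from limma.

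**Figure D3:**
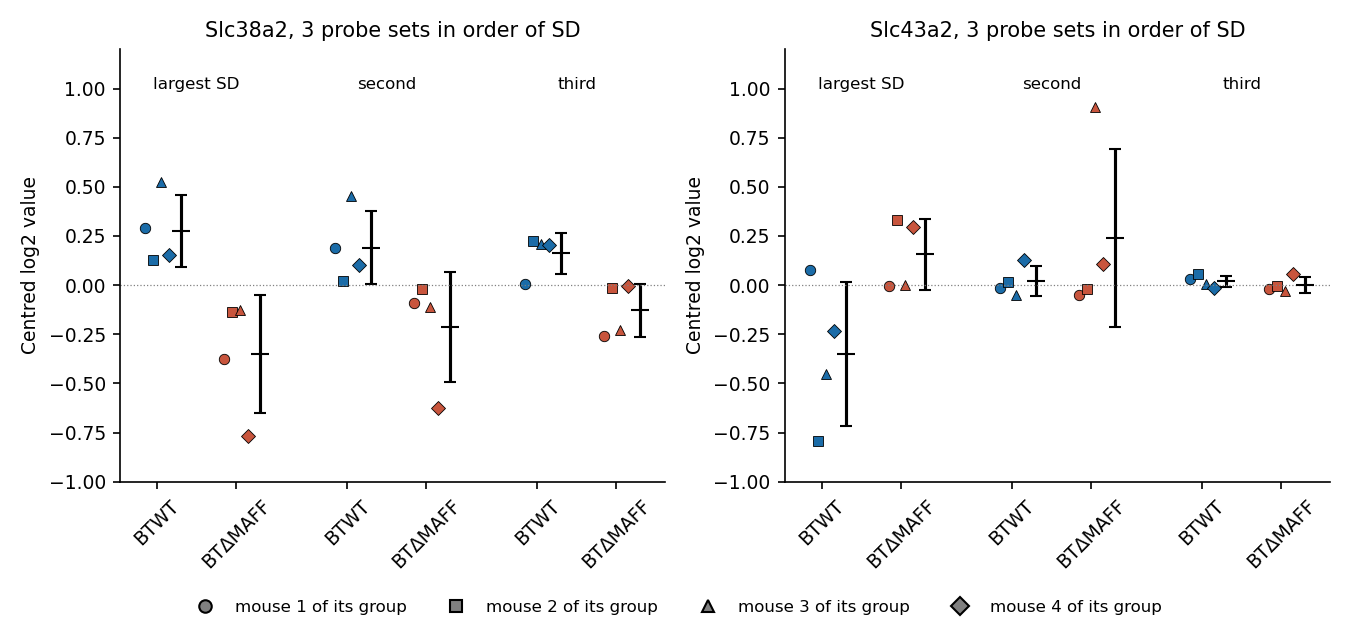
Centred log2 values (y axis) of the 3 probe sets of Slc38a2 and the 3 of Slc43a2 in each mouse, ordered by SD over the 8 mice, with bars for mean ± SD of 4 mice. All 3 probe sets of Slc38a2 have every BTWT mouse above every BTΔMAFF mouse, and those of Slc43a2 differ from one another.

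The plot by probe set shows that Slc38a2 differed in the same direction on all of its 3 probe sets. The second probe set had a difference of 0.40 (standard error 0.16, unadjusted p = 0.0361 from limma) and the third one of 0.29 (standard error 0.08, unadjusted p = 0.0090 from limma). On both, the 4 BTWT mice were above the 4 BTΔMAFF mice, although by narrow gaps, since on the second the replicate 2 mice lay at 0.02 (BTWT) and -0.02 (BTΔMAFF).

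The other 8 Slc38a genes did not pass the nominal threshold. Slc38a9, a lysosomal carrier that reports arginine to mTORC1, had a difference of -0.67 with a standard error of 0.42. Its values were 0.01, -1.80, -0.01, and -0.15 in BTWT replicates 1 to 4 and between -0.04 and 0.46 in BTΔMAFF, so BTWT replicate 2 alone was far below the rest. The sign was shared by 3 of the 6 further probe sets, and without BTWT replicate 2 the difference was -0.23. The median difference of the 9 Slc38a genes was 0.05.

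Slc36a1 encodes PAT1, which moves small neutral amino acids with protons across the apical membrane and out of lysosomes. Its values were -0.05, -0.40, -0.33, and -0.39 in BTWT replicates 1 to 4 and 0.39, 0.07, 0.05, and 0.70 in BTΔMAFF replicates 1 to 4. All BTWT mice were below all BTΔMAFF mice, but BTWT replicate 1 and BTΔMAFF replicate 3 lay close to each other. BTWT mice averaged -0.29 ± 0.17 (SD, n = 4) and BTΔMAFF mice 0.30 ± 0.31 (SD, n = 4), a difference of -0.59 with a standard error of 0.16 and a 95% confidence interval from -0.98 to -0.21. That is 1.51-fold lower in BTWT, with an unadjusted p of 0.0079 and an adjusted p of 0.616 from limma, and the unadjusted p was at most 0.0232 when any 1 array was left out. Of the other 3 Slc36a genes, which did not pass, Slc36a2 had a difference of 0.02 and all its values lay between -0.03 and 0.05.

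The peptide carriers of the Slc15a family, which take up di- and tripeptides with protons, had no member past the nominal threshold. Slc15a1 encodes PepT1, the apical peptide carrier of the intestine, and its values were -0.03, 0.16, -0.0021, and -0.34 in BTWT replicates 1 to 4 and 0.31, -0.01, 0.0021, and 0.87 in BTΔMAFF replicates 1 to 4. The difference was -0.34 with a 95% confidence interval from -0.85 to 0.16 and an unadjusted p of 0.153 from limma, so a fall of the size seen for Slc36a1 lies within its interval. It was -0.15 without BTΔMAFF replicate 4, the mouse at 0.87, and -0.11 with array weights. Slc15a2 (PepT2) had the widest spread of the 45 genes, an SD of 1.79 over the 8 mice, with -4.21 in BTWT replicate 2 and 1.51 in BTWT replicate 4. Its difference of -0.98 had a standard error of 1.21 and was 0.16 without BTWT replicate 2. The wide spread was on the probe set used, since the other 2 probe sets of Slc15a2 ran only from -0.02 to 0.14. Their differences were -0.01 and 0.02. The 5 Slc15a genes had a median difference of -0.34.

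The Slc43a family holds uniporters. Slc43a2 encodes LAT4, a basolateral exit route for large neutral amino acids, and its values were 0.08, -0.79, -0.45, and -0.23 in BTWT replicates 1 to 4 and -0.0024, 0.33, 0.0024, and 0.30 in BTΔMAFF replicates 1 to 4. BTWT replicate 1 lay above 2 of the BTΔMAFF mice, so the groups overlapped. The difference was -0.51 with a standard error of 0.19, 1.42-fold lower in BTWT, with an unadjusted p of 0.0315 from limma. Its other 2 probe sets had differences of -0.22 (unadjusted p = 0.338 from limma) and 0.02, and the first of these is the one with the largest SD within the groups. Without BTWT replicate 2 (-0.36), BTWT replicate 3 (-0.47), BTΔMAFF replicate 2 (-0.45), or BTΔMAFF replicate 4 (-0.46), the unadjusted p from limma was between 0.0571 and 0.0793. Slc43a3, which carries purine nucleobases in spite of its family, had a difference of 0.75 with a standard error of 0.39, an unadjusted p of 0.0982 from limma, and its highest value, 1.73, in BTWT replicate 3. Without that array its difference was 0.35. With array weights it was 1.19, with an unadjusted p of 0.0380 and an adjusted p of 0.194 from limma.

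The Slc1a family carries glutamate and neutral amino acids with sodium, and none of its 7 genes passed the nominal threshold. Slc1a1 (EAAC1, a glutamate and aspartate importer) had the largest difference of the family, 0.93 with a standard error of 0.80, because values ran from 1.38 in BTWT replicate 1 to -2.68 in BTΔMAFF replicate 3. Leaving out BTΔMAFF replicate 3 gave 0.25, and leaving out BTWT replicate 1 gave 0.56. Slc1a5 (ASCT2, which imports glutamine by exchange) had a difference of 0.21 with a 95% confidence interval from -0.48 to 0.90, and ran from 0.09 to 0.45 with single arrays left out. BTWT replicate 2 at -0.84, BTΔMAFF replicate 3 at -0.62, and BTΔMAFF replicate 4 at -0.69 were its low mice, and its other probe set had the opposite sign, -0.15. Slc1a3 (GLAST, a glutamate carrier best known from glia) had a difference of 0.08, from 0.0146 without BTWT replicate 2 to 0.18 without BTΔMAFF replicate 4.

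**Figure D4:**
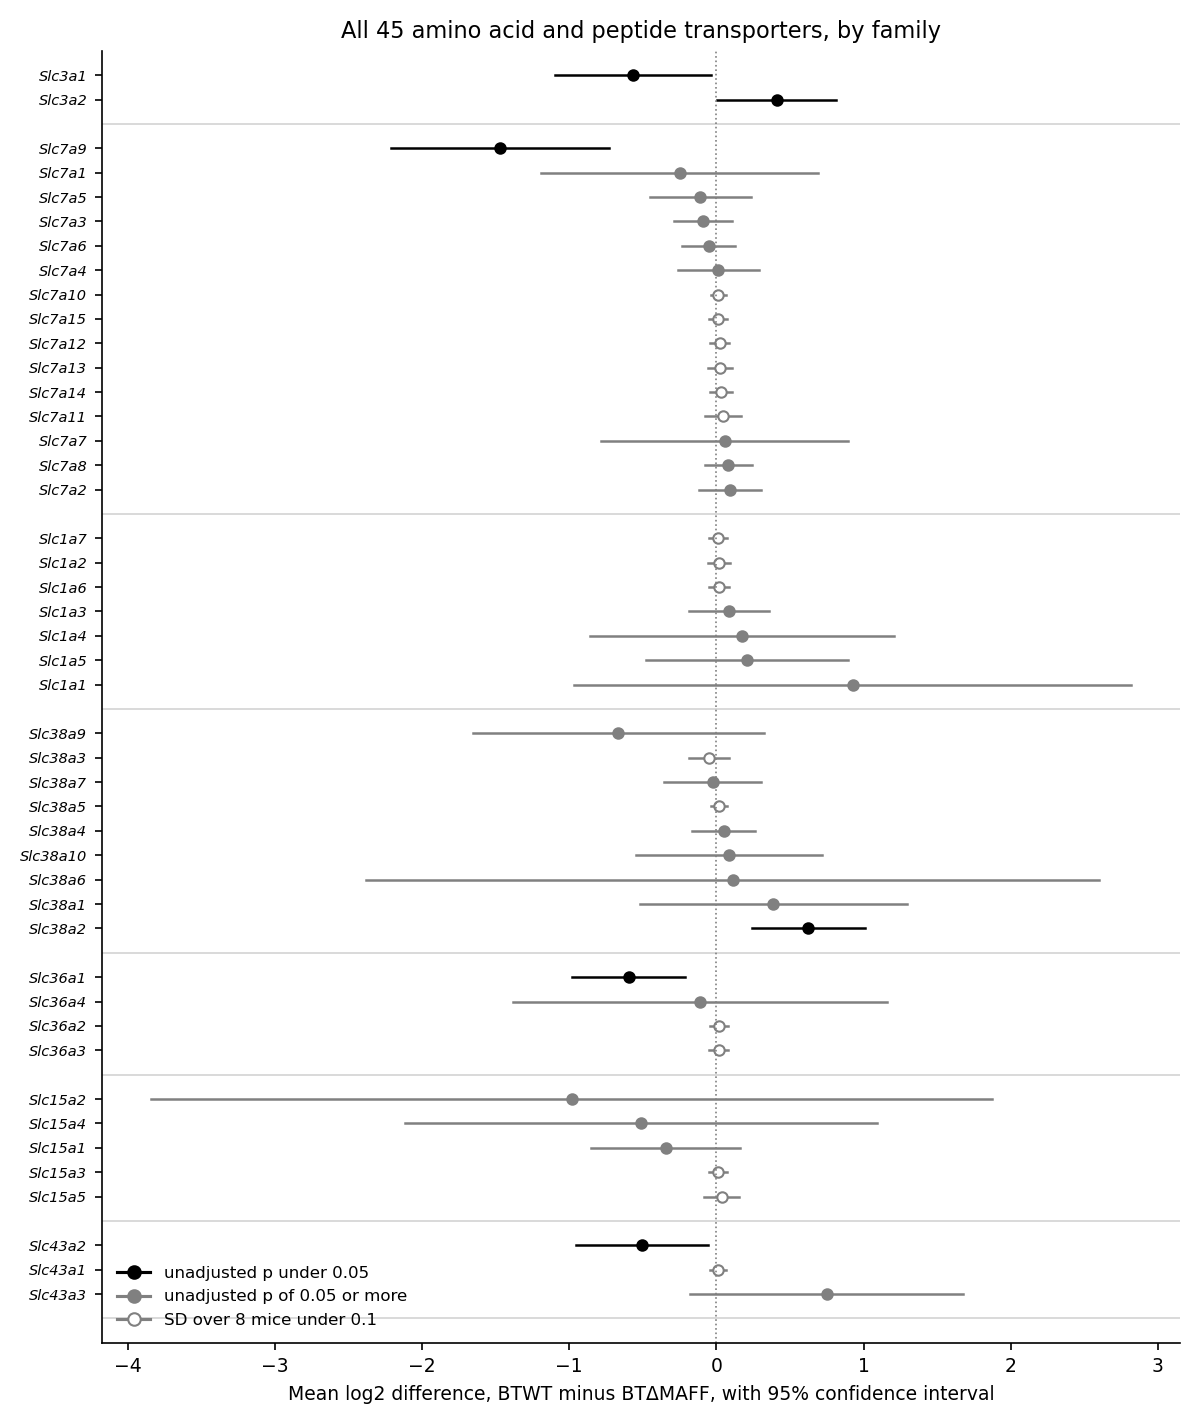
Mean log2 difference, BTWT minus BTΔMAFF (x axis), with its 95% confidence interval from limma for each of the 45 transporters (y axis), grouped by family. Black marks an unadjusted p under 0.05, grey a larger p, and open circles the 16 genes whose SD over the 8 mice was under 0.1.

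Across the families, the plot of all 45 genes shows 30 differences above 0 and 15 below. The 30 are 66.7% of the transporters, against 66.8% of all genes with a difference above 0, and the transporters' median was -0.0017 once each array was centred on its median. Of the genes, 16 (35.6%) had an SD under 0.1 over the 8 mice, against 38.6% of all genes, a limit chosen after the values were seen. The largest of their mean log2 differences was 0.05 in size, and 15 of them followed the arrays' own medians, with a correlation over 0.8 across the 8 arrays and a median of 0.990 over the 16. They include Slc7a10, Slc7a11, and Slc36a2 of those named above, and how far their probes lay above background is not known from centred values. The 25 transporters that were not chosen for description had differences from -0.51 to 0.39, with 19 above 0 and 6 below, and 0 of them passed the nominal threshold. The median difference by family was 0.08 in Slc1a, -0.08 in Slc3a, 0.01 in Slc7a, -0.05 in Slc36a, and 0.01 in Slc43a.

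Genes that work beside these carriers were counted from lists. Among 24 other amino acid carriers and their partner proteins, 1 passed the nominal threshold of limma as higher and 0 as lower, and the median difference was 0.02. The higher one was Slc17a5, a lysosomal sialic acid and acidic amino acid carrier, at 0.23 (standard error 0.09). Of 16 genes of peptide digestion, 0 were higher and 2 were lower, with a median of -0.08. These 2 were Mep1b, a subunit of the brush border protease meprin, at -0.59 (standard error 0.15, all BTWT mice below all BTΔMAFF mice) and Cndp2, a dipeptidase that acts in the cytosol and not at the cell surface, at -0.46 (standard error 0.18). Enpep, an aminopeptidase of the brush border, had -1.20 with a standard error of 0.62.

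Of 35 genes of Atf4 and the amino acid response, 2 passed the nominal threshold as higher and 0 as lower. Differences of the 35 ran from -0.76 to 0.84, with a median of 0.17. The list mean ran from -0.13 to 0.25 in BTWT and from -0.30 to 0.29 in BTΔMAFF, so the groups overlapped. The part of this program in the transporter differences was not tested. The higher genes were Vldlr, a lipoprotein receptor, at 0.84 (standard error 0.30) and Nupr1, a stress-induced chromatin protein, at 0.59 (standard error 0.23). Asns, the asparagine synthetase that is a standard target of Atf4 and was chosen after its values were seen, had 0.28 with a standard error of 0.34. Of 30 genes of mTORC1 and amino acid sensing, 2 were higher and 0 were lower, with a median of -0.08. Fnip2, a folliculin partner in lysosomal nutrient sensing, was at 0.73 (standard error 0.10, all BTWT mice above) and Rragd, one of the Rag GTPases, at 0.14 (standard error 0.06). Of 25 genes of intracellular amino acid use, 2 were higher and 1 was lower, with a median of 0.01. Oat, which makes ornithine into a glutamate precursor, was at 0.55 (standard error 0.15), the aspartate aminotransferase Got1 at 0.40 (standard error 0.11), and the tyrosine aminotransferase Tat at -0.54 (standard error 0.16).

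**Figure D5:**
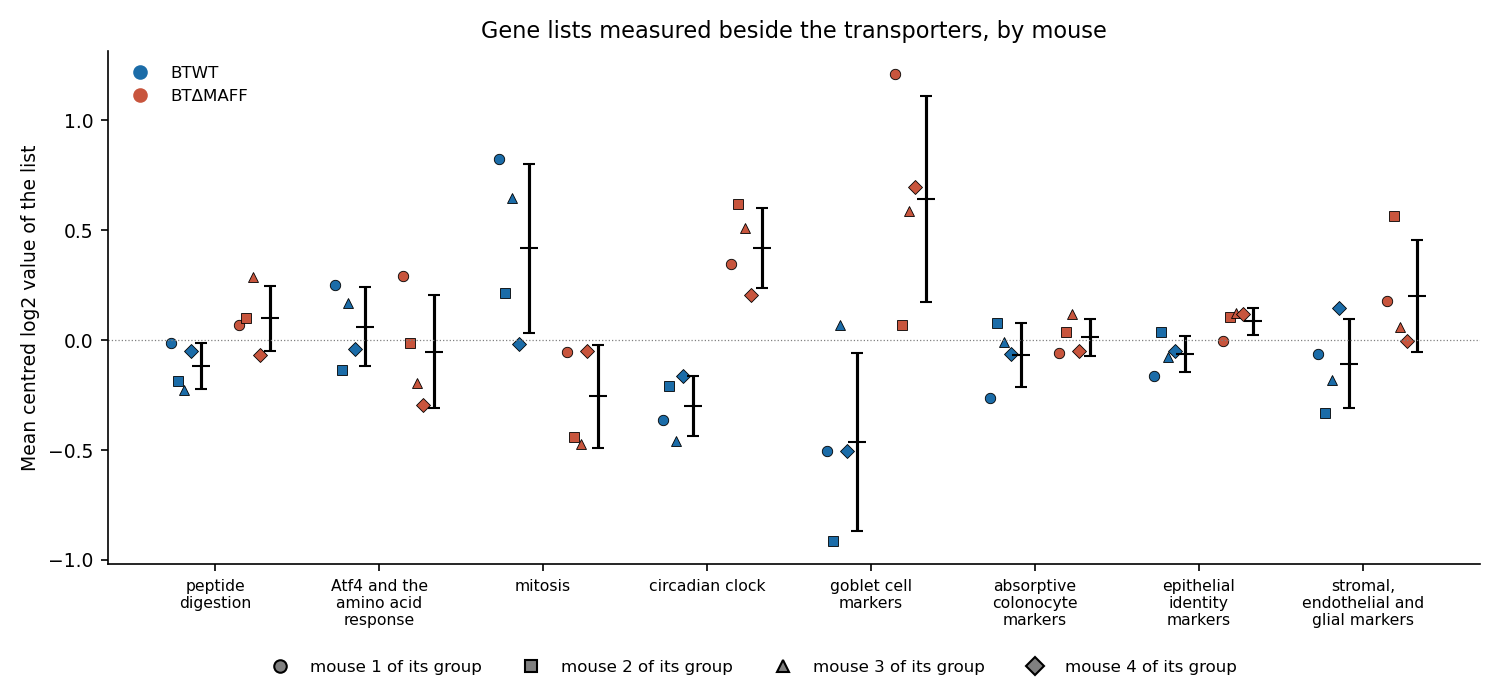
Mean centred log2 value (y axis) of 8 gene lists in each BTWT and BTΔMAFF mouse, with bars for mean ± SD of 4 mice and a marker shape for the replicate number. The clock list lies from -0.46 to -0.16 in BTWT and from 0.20 to 0.62 in BTΔMAFF. The lists of peptide digestion, Atf4 and the amino acid response, colonocytes, epithelial identity, and stromal cells overlap between the groups.

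Other cell programs moved with the same groups, and their part in the transporter differences was not tested. Of 24 mitosis genes, 11 passed the nominal threshold as higher and 0 as lower, and the list mean ran from -0.02 to 0.82 in BTWT and from -0.47 to -0.05 in BTΔMAFF. Of 17 circadian clock genes, 2 were higher and 10 lower, and the plot of list means shows no overlap between the groups. The clock repressors Per1 (-2.33) and Per3 (-1.80) were among the lower ones, and Cry1 (0.75) and Nfil3 (1.84), the latter 2 named after their values were seen, were the higher ones. Among markers of epithelial cell types, the counts of higher and lower genes were 1 and 4 of 11 for goblet cells, 1 and 2 of 12 for absorptive colonocytes, 1 and 0 of 11 for stem cells, 1 and 0 of 10 for enteroendocrine cells, and 1 and 0 of 7 for tuft cells. For goblet cells the list mean ran from -0.91 to 0.07 in BTWT and from 0.07 to 1.21 in BTΔMAFF. The lower genes of this list were Fcgbp, Ang4, Clca1, and Itln1, and its higher gene was Agr2, all named after their values were seen. Differences of the 11 goblet cell markers ran from -7.06 to 0.55, with a median of -0.21. The lowest of these weighs heavily in the list mean. For absorptive colonocytes the list mean ran from -0.27 to 0.08 in BTWT and from -0.06 to 0.12 in BTΔMAFF. The single higher genes included the stem cell receptor Ephb3 at 0.70 (standard error 0.23), the proglucagon gene Gcg at 1.10 (standard error 0.42), and the tuft cell channel Trpm5 at 0.46 (standard error 0.18). Of the colonocyte markers, Ceacam20, a brush border glycoprotein, was higher at 0.38 (standard error 0.16), whereas the chloride exchanger Slc26a3 was lower, with a difference of -0.48 (standard error 0.08), as was Krt20, a keratin of mature surface cells, by -0.32 (standard error 0.10). Of 8 genes of epithelial identity, 0 were higher and 3 were lower, with Vil1, a brush border actin bundler, at -0.40 (standard error 0.10), Krt20 as above, and Krt19, a keratin of simple epithelia, at -0.22 (standard error 0.08).

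The cells' label was checked against markers as far as centred values allow, which show differences only and no absence. Of 14 leukocyte markers and of 13 stromal, endothelial, and glial markers, 0 passed the nominal threshold in either direction. The leukocyte list mean ran from -0.02 to 0.21 in BTWT and from -0.02 to 0.11 in BTΔMAFF, and the stromal list mean from -0.33 to 0.15 and from -0.0044 to 0.57. RNA quality was compared between mice from the Gapdh controls, as the 3-prime value less the 5-prime value. Both values are centred for each probe set, so this measure shows differences between mice only, not how intact the RNA was. The Gapdh measure ran from -0.25 to 0.02 in BTWT and from -0.18 to 0.17 in BTΔMAFF. The same measure from the beta-actin controls ran from -0.06 to -0.02 in the 4 BTWT mice and was -0.04, 0.08, 0.04, and 0.05 in BTΔMAFF replicates 1 to 4, so it was higher in 3 of 4 BTΔMAFF mice than in any BTWT mouse, and its part in the transporter differences was not tested. Among all probe sets, the arrays of BTWT replicate 2 and BTΔMAFF replicate 4 lay far from the rest along the leading principal component (29.4% of the variance). Without both of these arrays, Slc7a9, Slc3a1, Slc36a1, and Slc38a2 kept their direction and passed the nominal threshold, whereas Slc43a2 (-0.31) and Slc3a2 (0.31) did not pass it. The adjusted p from limma was then 0.230 for Slc7a9 and 0.359 for Slc3a1, Slc36a1, and Slc38a2. The share of all genes that passed the nominal threshold without these arrays was not counted.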

How the data were processed

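RNA of sorted colonic epithelial cells was measured on 8 Affymetrix Mouse Genome arrays, 1 per mouse, and grouped by label. The authors deposited log2 values with the median of the 8 arrays subtracted from each probe set. The base of the logarithm was taken as 2, on which the fold changes rest. GeneSpring is named in the methods and Affymetrix Expression Console in the submitters' processing notes, but how background was corrected and arrays normalized is not given in the sources read. The 64 control probe sets were left out, and 45037 entered a fit in limma 3.58.1 (R 4.3.3) by lmFit and eBayes without covariates, as BTWT minus BTΔMAFF, and p-values were adjusted by Benjamini-Hochberg over all of them with a threshold of 0.05. Nothing says that the mice came from separate cages or experiments, so p-values measure the spread between these samples. Precision is limited by the number of arrays.

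The transporters and the 15 lists (276 entries, 19 not found) were chosen with earlier results of these data known. The 20 named transporters are those at an unadjusted p under 0.05, the 2 of smallest p in each family, both heavy chains with their light chains, Slc15a1, and Slc1a5. From other lists, up to 3 genes of smallest p were named, apart from genes said to be named or chosen after their values were seen. For goblet cells, all markers past the nominal threshold were named. Symbols come from the array annotation, and all 45 matched RefSeq (GRCm38.p6) by gene ID. Slc36a1os and Slc7a6os, which begin alike, and 1 probe set of several genes were not used. Alternatives were quantile normalization, median centring of arrays, weights for arrays, a block for the replicate number, leaving out arrays, the methods' test, other choices of probe set, and a filter on SD. In data simulated for BTWT against BTΔMAFF, 82 of 100 probe sets with a log2 change of 1.5 and 97 of 100 with a change of 3 passed the adjusted threshold, as did 10 of 44837 unchanged ones. The simulated noise was normal and independent between probe sets, with no arrays that stand apart, so these counts may not hold for the deposited values. Changes smaller than 1.5 were not simulated.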

Additional observations from a re-analysis of the deposited data

Results flagged for a closer look

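In 3 cases a single mouse lay far from the other 3 of its group, judged by the gap to the nearest mouse divided by the range of the group. Of 40 group checks over the 20 named transporters, 3 passed the critical value of 0.829, and chance alone flags about 1 in 20 groups. Slc38a9 was at -1.80 in BTWT replicate 2 with the nearest mouse at -0.15, a ratio of 0.911. Slc7a7 was at -0.71 in BTWT replicate 2 with the nearest mouse at 0.02, a ratio of 0.848. Slc1a3 was at 0.31 in BTΔMAFF replicate 4 with the nearest mouse at -0.06, a ratio of 0.866. These mice are the ones whose arrays stand apart on the first principal component.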

How the results depend on the processing

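Slc7a9, Slc36a1, and Slc38a2 kept their direction and an unadjusted p under 0.05 under each of the 18 alternatives. Slc3a1, Slc3a2, and Slc43a2 lost that p under some. Slc7a9, Slc36a1, Slc3a1, and Slc3a2 each have 1 probe set, so the other choices of probe set could not change their differences. The count of higher transporters, 2, was 1 with arrays centred on their medians, the replicate block, the methods' test, and the SD filter. It was 5 with array weights. That setting also gave 1 transporter, Slc7a9, at an adjusted p under 0.05 in place of 0, when 1.29% of all genes passed. The share of all genes at an unadjusted p under 0.05 was not counted under the alternatives, so these counts have no background beside them. The count of lower transporters, 4, was 2 with the replicate block. Deviations of same-numbered mice from their group means correlated at 0.39, -0.04, 0.03, and -0.27 for replicates 1 to 4. These few values do not settle whether same-numbered mice were paired. With single arrays left out, the counts ranged from 1 to 2 higher, from 2 to 4 lower, and from 0 to 0 adjusted. All BTWT mice were above for 1 to 15 transporters, and 15 was reached without BTΔMAFF replicate 4, when 35.9% of all genes did so, and likewise without both arrays that stand apart (15, against 37.3%). Without BTΔMAFF replicate 2 it was 3 (1.86% of all genes), and without BTWT replicate 1 it was 2 (1.68% of all genes). Of the 15, 12 had an SD under 0.1. Slc3a1 had an unadjusted p of 0.0590 with quantile normalization, 0.106 with the replicate block, and 0.0582 with the methods' test, against 0.0397 in limma as reported.

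Uncalled genes that changed sign were Slc7a10 (-0.0073 with quantile normalization, -0.0055 with median centring), Slc36a2 (-0.0037 and -0.0023 with the same settings), Slc7a7 (-0.0287 with array weights, -0.0535 without both arrays that stand apart, -0.0284 as the mean of all probe sets), and Slc15a2 (0.37 without both arrays). With single arrays left out, Slc7a7 ranged from -0.25 to 0.28, Slc15a2 from -1.74 to 0.16, Slc7a5 from -0.19 to 0.0446, and Slc7a6 from -0.0910 to 0.0265. The cause was not tested. Signal over background is unknown for centred values, so whether a gene that varied little was expressed cannot be read from them.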
